A study of Arabidopsis thaliana with 6 samples.

Results

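The genes described here are the 37 Arabidopsis loci named as glucosinolate biosynthesis genes: the enzymes of the aliphatic and indolic branches, 1 transporter and the MYB factors that regulate them. They were chosen by locus identifier from what the genes are known to do, with earlier results of these data known. Of the 37, 36 are among the 33314 genes of the deposited tables, and *AOP2* (AT4G03060) was not analysed here. A minimum of 20 counts summed over the 3 libraries was passed by 29 of them, as by 16426 genes in all.

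The study addressed how FIONA1 (FIO1), an m6A RNA methyltransferase related to METTL16, acts on transcripts in flowering. Nanopore direct RNA libraries came from whole seedlings of *fio1-1*, *fio1-5* and wild type, all in the Col-0 ecotype and all grown for 14 days on MS medium under long days, with no other treatment. The *fio1-1* allele lacks a few amino acids of FIO1, and *fio1-5* is a CRISPR allele with a deletion in the gene, submitted under the working name fio1-2. Each genotype is 1 library, made from a pool of seedlings as far as the methods describe it, and neither allele is represented by a second line. With no replicate check on any difference, no p-value is given, and the 95% intervals printed here cover counting error only.

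The estimated counts, summed per gene and rounded, came to 4351543, 4682799 and 4602836 for *fio1-1*, *fio1-5* and Col-0, the order in which values are given throughout. *FIO1* (AT2G21070) had 17, 30 and 25 counts. Both alleles alter the sequence of the transcript and need not lower its amount, so this count does not check the labels. Of 8 root genes (*CASP1* to *CASP5*, *EXPA7*, *EXPA18* and *COBL9*), all were higher in both mutants than in Col-0, or 7 of 8 in *fio1-1* with total-count scaling or TPM (median log2 ratio 0.95 in *fio1-1* and 1.04 in *fio1-5*), and their summed level was 318, 363 and 171 CPM. CPM is a gene's count relative to the library total, after scaling the libraries by TMM, a method that sets the bulk of genes equal, and TPM is the deposited level per transcript length. All 8 had counts in every library. Of 8 genes of green tissue, 2 were higher and 6 lower in *fio1-1* (median -0.24), or 0 higher on TPM (median -0.38). In *fio1-5*, 7 were higher (median 0.17), or 6 with total-count scaling and 4 on TPM (median 0.005). The summed level of these genes was 22070, 27690 and 22830 CPM. Their part in the results below was not tested. In libraries of whole seedlings, more cells of a type and more RNA per cell cannot be told apart.

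Glucosinolates are sulfur-rich defence compounds of the cabbage order, which myrosinases break down into toxic products when tissue is damaged. Aliphatic glucosinolates are made from methionine, whose side chain is first lengthened in the plastid, and indolic glucosinolates from tryptophan. In both branches a core pathway turns the amino acid into an aldoxime, oxidises and conjugates it, cleaves the conjugate, and adds glucose and sulfate, with separate enzymes for most steps. MYB28 and MYB29 are the main activators of the aliphatic branch, and MYB34, MYB51 and MYB122 activate the indolic branch.

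The summed level of the members was higher in both mutants than in Col-0. Of the 13 aliphatic genes of chain elongation and core that passed the count minimum, all were above Col-0 in *fio1-5*, with a median log2 ratio of 0.87. Of all 16426 genes that passed it, 8285 were above Col-0 in *fio1-5*. In *fio1-1* the members farthest above Col-0 with more than 100 counts over the libraries were indolic genes: *CYP81F2*, *UGT74B1* and *CYP83B1*. Summed over the 36 genes, the level was 4811 CPM (4745 to 4877), 4883 CPM (4820 to 4947) and 3708 CPM (3653 to 3763). Most of these counts were of *GSTF9* and *GSTF10*. Without them, in a sum added after the values were seen, the level was 1839, 2176 and 1355 CPM.

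Against Col-0, 5 of the 29 members were at least 2-fold higher in *fio1-1* and 0 were at least 2-fold lower, where 9.50% and 4.29% of all 16426 genes were. Of these 5, *SUR1* and *MYB122* had few counts and intervals that held 0. In *fio1-5*, 5 were at least 2-fold higher and 0 lower, beside 7.43% and 4.29% of all genes. The median log2 ratio of the members was 0.40 in *fio1-1* and 0.65 in *fio1-5*, and that of all genes was -0.01 and 0.01. The counting interval lay wholly above Col-0 for 15 members in *fio1-1* and 23 in *fio1-5*, and wholly below it for 0 and 1. Among all genes, 18.9% and 15.0% had an interval wholly above and below in *fio1-1*, and 17.4% and 14.8% in *fio1-5*. These intervals narrow as counts grow, so well-counted genes fall on one side more readily. Both mutants are compared with the same Col-0 library, so the comparisons are not independent.

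**Figure D1:**
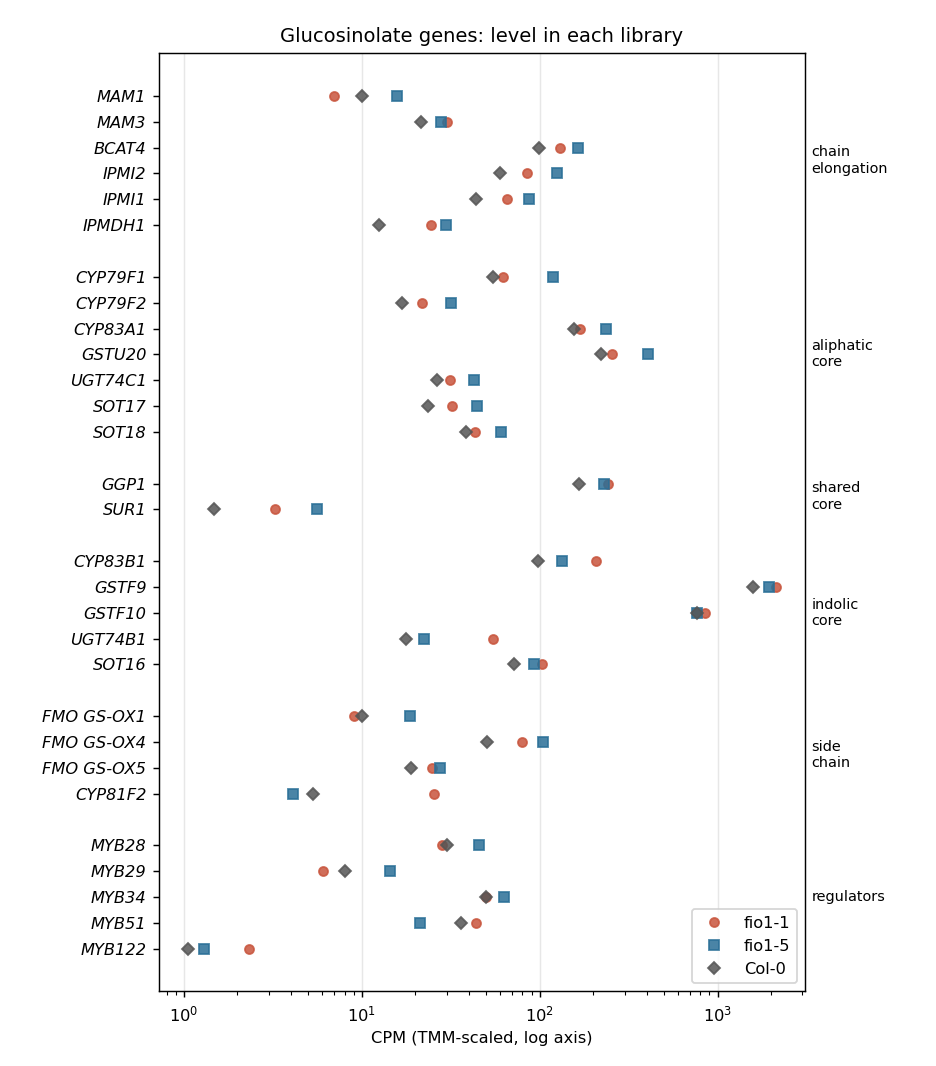
Level of each of the 29 members with at least 20 counts, in CPM on a log axis, with 1 point per library (circles *fio1-1*, squares *fio1-5*, diamonds Col-0) and the genes grouped by role. In the aliphatic core the *fio1-5* point is the highest for all 7 genes, and in the indolic core the *fio1-1* point is the highest for all 5.

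The chain elongation genes lengthen the side chain of methionine. *BCAT4* (AT3G19710), the aminotransferase that starts the cycle, was the most abundant of them per length, at 68.5, 85.1 and 58.0 TPM in *fio1-1*, *fio1-5* and Col-0. It had 560, 759 and 470 counts, log2 ratios against Col-0 of 0.38 (0.21 to 0.56) in *fio1-1* and 0.72 (0.55 to 0.89) in *fio1-5*. Col-0 was lowest and *fio1-5* highest.

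*IPMI2* (AT2G43100), a small subunit of the isopropylmalate isomerase that moves the hydroxyl group, had 364, 576 and 283 counts in *fio1-1*, *fio1-5* and Col-0, respectively. Its log2 ratio against Col-0 was 0.49 (0.27 to 0.72) in *fio1-1* and 1.05 (0.84 to 1.26) in *fio1-5*. The other small subunit among the members, *IPMI1* (AT3G58990), stood in the same order, with 283, 401 and 207 counts.

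*IPMDH1* (AT5G14200), the dehydrogenase that closes the cycle, had 106, 138 and 59 counts in *fio1-1*, *fio1-5* and Col-0, respectively. Its log2 ratios were 0.97 (0.50 to 1.46) and 1.24 (0.80 to 1.72), the highest of the chain elongation group in each mutant. Of its 21-base words in the RefSeq transcripts, 25.8% also occur in *IPMDH3* (AT1G31180), which had only 2, 3 and 3 counts. An opposite-strand neighbour that overlaps it, AT5G14210, had 70, 110 and 116.

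The methylthioalkylmalate synthases, which add the carbon and set the chain length, differed from each other. *MAM3* (AT5G23020) had 130, 129 and 102 counts, log2 ratios of 0.48 (0.10 to 0.87) in *fio1-1* and 0.36 (-0.02 to 0.75) in *fio1-5*. *MAM1* (AT5G23010), its neighbour on the chromosome, had 30, 73 and 47 counts and was lowest in *fio1-1*. As a share of the counts of the pair, *MAM1* held 18.8%, 36.1% and 31.5%. *BAT5* (AT4G12030), the transporter that carries the keto acids across the plastid envelope, had 0, 1 and 1 counts, under the floor of 3 counts in each library. Over the chain elongation group, 6 of 7 genes passed the count minimum, with medians of 0.49 in *fio1-1* and 0.85 in *fio1-5*.

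The 7 aliphatic core genes that passed the minimum lay within a narrow band. Their log2 ratios ran from 0.12 to 0.44 (median 0.21) in *fio1-1*, where *CYP83A1* turned to -0.03 on the deposited TPM, and from 0.61 to 1.11 (median 0.87) in *fio1-5*. The interval lay above 0 for 2 of 7 in *fio1-1* and for 7 of 7 in *fio1-5*, beside 18.9% and 17.4% of all genes. Their summed level was 614 CPM (591 to 638), 939 CPM (911 to 967) and 537 CPM (516 to 558) in *fio1-1*, *fio1-5* and Col-0, so that *fio1-5* stood 1.75-fold (1.67 to 1.84) above Col-0.

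*CYP79F1* (AT1G16410), the cytochrome P450 that converts elongated methionine to its aldoxime, had 266, 548 and 259 counts in *fio1-1*, *fio1-5* and Col-0, respectively. The log2 ratio was 0.17 (-0.08 to 0.42) in *fio1-1* and 1.11 (0.89 to 1.33) in *fio1-5*. The level in *fio1-5* stood apart, whereas *fio1-1* and Col-0 did not differ beyond counting error. Its neighbour *CYP79F2* (AT1G16400), which acts on the long chains, had 94, 146 and 79 counts. The pair share 10.0% of the words of *CYP79F1* and 16.4% of those of *CYP79F2*, so reads could be split between them, but with both summed the log2 ratio was still 0.22 in *fio1-1* and 1.06 in *fio1-5*.

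*GSTU20* (AT1G78370), a glutathione transferase of the conjugation step, was the most abundant aliphatic core gene per length, with 180, 281 and 172 TPM in *fio1-1*, *fio1-5* and Col-0. Its counts were 1100, 1872 and 1040, which gave log2 ratios of 0.21 (0.09 to 0.34) and 0.87 (0.76 to 0.98). The *fio1-5* library was again the one that stood apart. *GSTF11* (AT3G03190), the other transferase given to this step, had 0, 0 and 2 counts.

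The remaining aliphatic core genes were also highest in *fio1-5*. *CYP83A1* (AT4G13770), which oxidises the aldoxime, had 723, 1095 and 731 counts. *UGT74C1* (AT2G31790), the glucosyltransferase, had 135, 197 and 125, and an opposite-strand gene that overlaps it, AT2G31800, had 238, 190 and 208. The sulfotransferases of the last step had 138, 207 and 111 counts (*SOT17*, AT1G18590) and 186, 282 and 182 (*SOT18*, AT1G74090). In *fio1-1* the interval against Col-0 held 0 for *CYP83A1*, *UGT74C1* and *SOT18*. *SOT18* overlaps AT1G74088 on the same strand, which had 26, 27 and 38 counts.

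Cleavage of the conjugate is shared by both branches. *GGP1* (AT4G30530), a peptidase that trims the glutathione conjugate, had 1036, 1061 and 789 counts in *fio1-1*, *fio1-5* and Col-0, respectively, or 158, 148 and 121 TPM. Its log2 ratio was 0.52 (0.39 to 0.66) in *fio1-1* and 0.45 (0.32 to 0.59) in *fio1-5*, so both mutants stood above Col-0. *SUR1* (AT2G20610), the C-S lyase that follows, had only 14, 26 and 7 counts, or 1.34, 2.31 and 0.676 TPM. The log2 ratios were 1.08 (-0.27 to 2.68) and 1.84 (0.68 to 3.37), and at this depth only the second has an interval above 0. Of its counts, 2, 14 and 1 were of the second listed isoform, and on the most counted isoform alone the *fio1-5* ratio was 0.97, short of 2-fold.

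The 5 indolic core genes that passed the count minimum were highest in *fio1-1*. *CYP83B1* (AT4G31500), which oxidises the tryptophan-derived aldoxime, had 897, 616 and 464 counts in *fio1-1*, *fio1-5* and Col-0, respectively. Its log2 ratios were 1.08 (0.92 to 1.25) and 0.43 (0.26 to 0.61). Both mutants were above Col-0, and *fio1-1* was above *fio1-5*.

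*UGT74B1* (AT1G24100), the glucosyltransferase, had 236, 104 and 83 counts in *fio1-1*, *fio1-5* and Col-0. The log2 ratio was 1.63 (1.27 to 2.02) in *fio1-1*, a 3.11-fold higher level, and 0.35 (-0.08 to 0.78) in *fio1-5*. Here *fio1-1* stood apart, and *fio1-5* and Col-0 did not differ beyond counting error. *SOT16* (AT1G74100), the sulfotransferase, had 441, 432 and 338 counts, with both mutants above Col-0.

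*GSTF9* (AT2G30860) and *GSTF10* (AT2G30870), neighbouring glutathione transferases assigned to this branch, were the most abundant members per length, *GSTF10* at 609, 541 and 609 TPM. *GSTF9* had 9123, 8993 and 7465 counts in *fio1-1*, *fio1-5* and Col-0, respectively, or 1362, 1232 and 1127 TPM. Its log2 ratios were 0.42 (0.38 to 0.47) and 0.29 (0.25 to 0.34). *GSTF10* had 3659, 3542 and 3619 counts, so only its *fio1-1* level, with a log2 ratio of 0.15, was above that of Col-0, and this ratio was 0.00 on the deposited TPM. Together these genes held 61.8%, 55.4% and 63.5% of all member counts in *fio1-1*, *fio1-5* and Col-0. Without them, in a sum added after the values were seen, the indolic core stood at 368, 250 and 190 CPM, against 3340, 2958 and 2543 CPM with them.

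*CYP79B2* (AT4G39950) and *CYP79B3* (AT2G22330), the cytochromes P450 that open the indolic branch, were close to absent from the tables. *CYP79B2* had 7, 5 and 6 counts in *fio1-1*, *fio1-5* and Col-0, and *CYP79B3* had 1, 1 and 4. Per length, *CYP79B2* stood at 0.544, 0.357 and 0.479 TPM and *CYP83B1*, of the next step, at 79.8, 50.3 and 41.7 TPM. *CYP79B2* and *CYP79B3* are listed with more than 1 isoform, as are *SUR1* and *BAT5*. Of the members with 1 listed isoform, 20 of 21 passed the count minimum, and of those with 2 or more, 9 of 15 did. Among all listed genes the shares were 43.8% and 59.5%, and the part of the isoform assignment in these low counts was not tested.

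**Figure D2:**
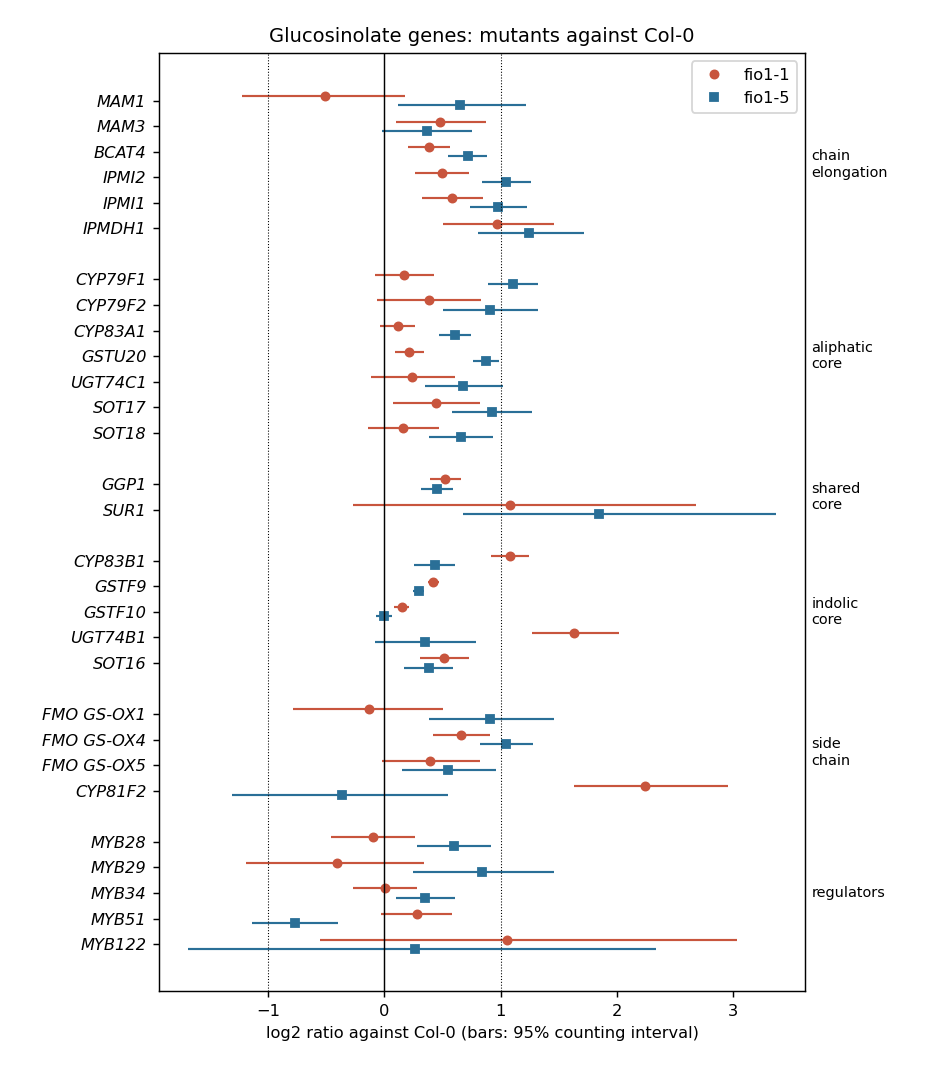
Log2 ratio of each of the 29 members in *fio1-1* (circles) and *fio1-5* (squares) against the same Col-0 library, with bars for the 95% counting interval and dotted lines at 2-fold. All 7 aliphatic core genes have *fio1-5* to the right of *fio1-1*, and all 5 indolic core genes have *fio1-1* to the right, most of all *UGT74B1* (1.63 against 0.35).

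Side chain enzymes modify the finished glucosinolate. *FMO GS-OX4* (AT1G62570), a flavin monooxygenase that oxygenates the sulfur of aliphatic side chains, was the most abundant per length, at 25.5, 32.9 and 17.9 TPM in *fio1-1*, *fio1-5* and Col-0. With 342, 481 and 237 counts its log2 ratios were 0.66 (0.42 to 0.91) and 1.05 (0.82 to 1.28). Both mutants were above Col-0 and *fio1-5* was highest.

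Of the other oxygenases of this family, *FMO GS-OX5* (AT1G12140) had 107, 128 and 89 counts and *FMO GS-OX1* (AT1G65860) had 39, 87 and 47, with *fio1-5* highest in each. *FMO GS-OX5* shares 20.4% of its words with AT1G04933, which overlaps it on the same strand and had 1, 0 and 1 counts. *FMO GS-OX2* (AT1G62540) had 3, 4 and 3 counts, and *FMO GS-OX3* (AT1G62560) had 2, 9 and 3. *AOP3* (AT4G03050), a dioxygenase that makes hydroxyalkyl side chains, had no count in any library. The floor of 3 counts stands at 0.698, 0.648 and 0.637 CPM, and the exact Poisson upper limit for 0 counts is 3.69 counts.

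*CYP81F2* (AT5G57220), a cytochrome P450 that hydroxylates the indole ring and is needed for glucosinolate-dependent defence against microbes, was the member that differed most. It had 110, 19 and 25 counts in *fio1-1*, *fio1-5* and Col-0, respectively. Its level in *fio1-1* was 4.82-fold that of Col-0, with an interval of the log2 ratio from 1.63 to 2.96. In *fio1-5* the log2 ratio was -0.36 (-1.31 to 0.55), which is not distinguishable from Col-0 at this depth.

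The regulators did not move together. *MYB34* (AT5G60890), an activator of the indolic branch and the most abundant of the 5 per length (20.6, 25.8 and 22.8 TPM), had 214, 293 and 234 counts in *fio1-1*, *fio1-5* and Col-0. Its log2 ratio was 0.00 (-0.27 to 0.28) in *fio1-1*, or -0.14 on the deposited TPM, and 0.35 (0.10 to 0.60) in *fio1-5*. *MYB51* (AT1G18570), another indolic activator, had 188, 98 and 170 counts, and with a log2 ratio of -0.77 (-1.14 to -0.40) in *fio1-5* it was the only member of 29 with an interval wholly below Col-0.

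*MYB122* (AT1G74080), the third of the indolic activators, had 10, 6 and 5 counts. Its log2 ratios were 1.06 (-0.55 to 3.03) and 0.26 (-1.69 to 2.34), so that counts this low do not separate the libraries. The aliphatic activators *MYB28* (AT5G61420) and *MYB29* (AT5G07690) had 121, 211 and 142 counts and 26, 67 and 38 counts. Both were highest in *fio1-5* and lowest in *fio1-1*, though the *fio1-1* intervals against Col-0 held 0.

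The alleles were also set against each other. Of the 29 members, 3 were at least 2-fold higher in *fio1-5* than in *fio1-1* and 3 at least 2-fold lower, where 3.26% and 4.96% of all genes were. The higher ones were *MYB29* (log2 ratio 1.24, 0.59 to 1.97), *MAM1* (1.16, 0.55 to 1.84) and *FMO GS-OX1* (1.04, 0.49 to 1.64, or 0.94 on the deposited TPM), which all belong to the aliphatic branch. The lower ones were *CYP81F2* (-2.61, -3.43 to -1.93), *UGT74B1* (-1.28, -1.64 to -0.95) and *MYB51* (-1.04, -1.41 to -0.69), all of the indolic branch. The interval lay wholly above 0 for 16 members and wholly below for 6, beside 11.4% and 13.2% of all genes.

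By role, 12 of the 13 aliphatic genes of chain elongation and core were higher in *fio1-5* than in *fio1-1* (median 0.49), 11 of them with an interval above 0, and the exception was *MAM3*. The 5 indolic core genes with at least 20 counts were all lower in *fio1-5* than in *fio1-1* (median -0.15), 4 of them with an interval below 0, the exception being *SOT16*. In this comparison the median of all genes was 0.00, and 8272 of the 16426 were above 0. The interval lay wholly above 0 for 11.4% of them and wholly below for 13.2%. The 8 genes of green tissue were also all higher in *fio1-5* than in *fio1-1*, each with an interval above 0 (median 0.34). Of the 8 root genes, 7 were higher in *fio1-5*, 1 of them with an interval above 0 (median 0.20). The part of either tissue in these differences was not tested. These directions held with 2 counts added, on TPM, with DESeq2 size factors and with total-count scaling.

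**Figure D3:**
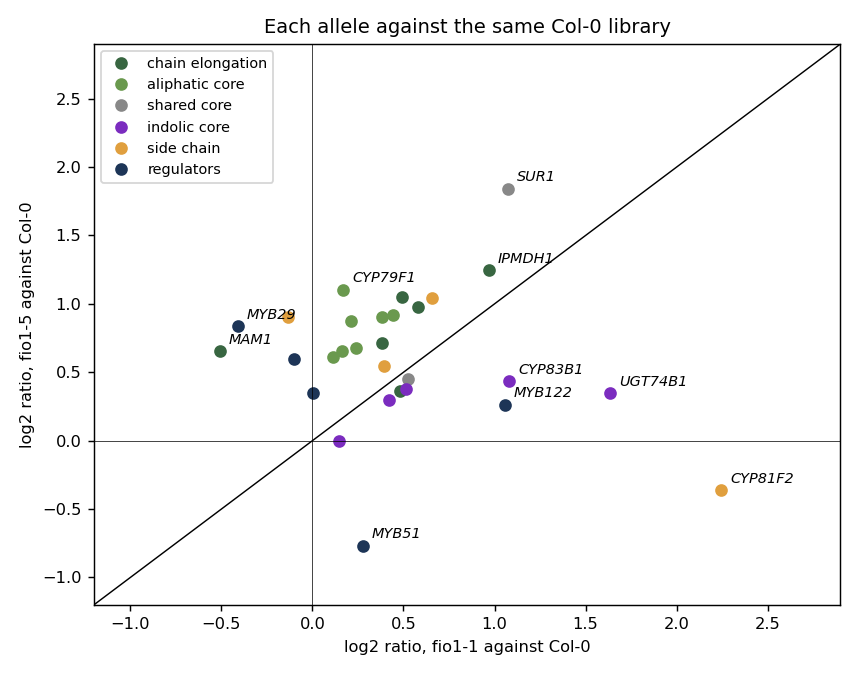
Log2 ratio against Col-0 in *fio1-5* (vertical axis) plotted against that in *fio1-1* (horizontal axis) for the 29 members, coloured by role, with the diagonal of equal ratios. Since both axes use the same Col-0 library, the trend along the diagonal is not independent. What the plot shows is the distance from that line: 7 of 7 aliphatic core genes lie above it and 5 of 5 indolic core genes below it. The distance is small for *GSTF9*, *GSTF10* and *SOT16* (log2 ratio of *fio1-5* against *fio1-1* -0.13, -0.15 and -0.14). For *SOT16* the interval held 0.

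Matched steps of the branches were compared within each library, where the share of aliphatic counts does not depend on how libraries are scaled. At the oxidation step, *CYP83A1* held 44.6% (42.2 to 47.1), 64.0% (61.7 to 66.3) and 61.2% (58.3 to 64.0) of its counts and those of *CYP83B1*. At glucosylation, *UGT74C1* held 36.4% (31.5 to 41.5), 65.5% (59.8 to 70.8) and 60.1% (53.1 to 66.8) against *UGT74B1*. In both steps *fio1-1* was lowest and its exact binomial interval did not reach those of the others, which overlapped each other.

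At sulfation, *SOT17* and *SOT18* held 42.4% (38.8 to 45.9), 53.1% (49.8 to 56.4) and 46.4% (42.5 to 50.4) of the counts with *SOT16*. The aliphatic regulators *MYB28* and *MYB29* held 26.3% (22.7 to 30.2), 41.2% (37.4 to 45.0) and 30.6% (26.9 to 34.5) of the counts of the 5 MYB genes. For these steps the interval of *fio1-1* overlapped that of Col-0, and *fio1-5* had the highest share, with an interval that overlapped that of Col-0 at sulfation and not for the MYB genes. At aldoxime formation *CYP79F1* and *CYP79F2* held 97.8%, 99.1% and 97.1%, set by the few counts of *CYP79B2* and *CYP79B3*.

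**Figure D4:**
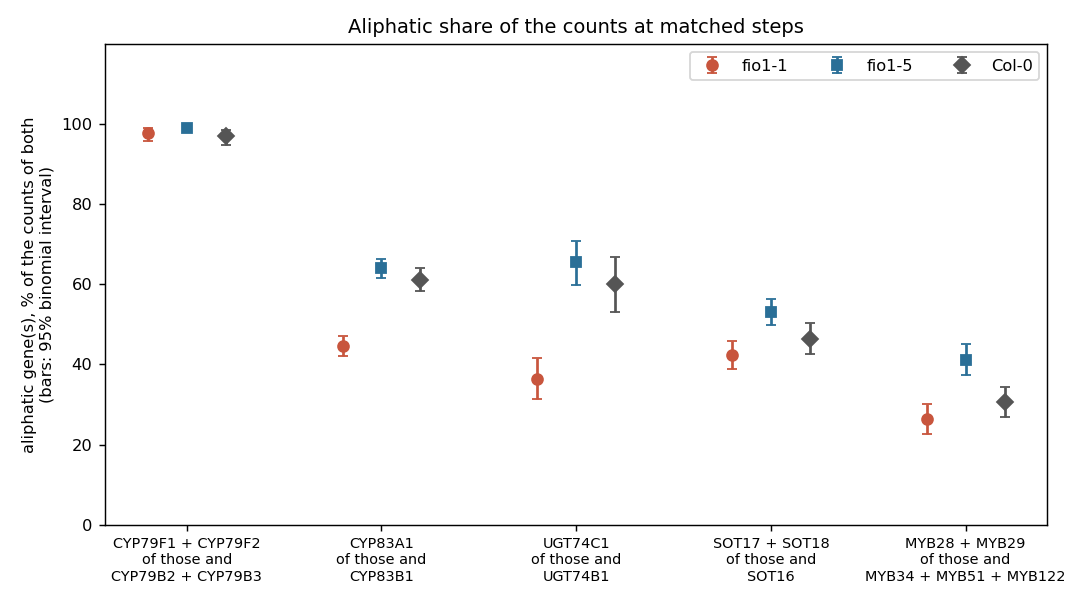
Share of the counts at each matched step that belongs to the aliphatic gene or genes, in percent, for *fio1-1* (circles), *fio1-5* (squares) and Col-0 (diamonds), with bars for the 95% exact binomial interval. At the oxidation and glucosylation steps the *fio1-1* bar (44.6% and 36.4%) lies below and apart from those of the other libraries, and *fio1-5* has the highest share at every step.

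Of 31 further genes of the pathway and its supply, outside the 37, 24 passed the count minimum, with a median log2 ratio of 0.21 in *fio1-1* and 0.20 in *fio1-5*. In *fio1-1*, 2 of the 24 were at least 2-fold higher and 0 lower, a share near the 9.50% and 4.29% of all genes. They were *IGMT1* (AT1G21100) and *IGMT2* (AT1G21120), methyltransferases that act on the indole ring after CYP81F2. *IGMT1* had 772, 335 and 381 counts in *fio1-1*, *fio1-5* and Col-0, respectively, a log2 ratio of 1.15 (0.97 to 1.33) in *fio1-1* and -0.16 (-0.38 to 0.06) in *fio1-5*. *IGMT2* had 22, 3 and 1 counts, too few for a firm ratio. Both were highest in *fio1-1*. Other genes of the indole ring in this list were not: *CYP81F4* (AT4G37410), a relative of *CYP81F2*, had 497, 587 and 473 counts and *IGMT5* (AT1G76790), a methyltransferase, had 538, 643 and 505, both highest in *fio1-5*.

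In *fio1-5*, 2 of the 24 further genes were at least 2-fold higher and 0 lower, again near the 7.43% and 4.29% of all genes: *IGMT2*, at the floor of 3 counts, and *FMO GS-OX7* (AT1G12160), an oxygenase of the aliphatic side chain family. *FMO GS-OX7* had 34, 49 and 19 counts, a log2 ratio of 0.95 (0.12 to 1.86) in *fio1-1* and 1.37 (0.60 to 2.24) in *fio1-5*. Between the alleles, *CYP81F3* (AT4G37400) was also past 2-fold, with 5, 13 and 11 counts and an interval that held 0 (-0.31 to 3.11).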

How the data were processed

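For each genotype the labels name 1 Illumina and 1 Nanopore sample, whereas the deposited columns name no platform. They were read as the Nanopore libraries, as the study describes the series. The authors base called the reads with Guppy, filtered them with Nanofilt, corrected them with Fclmr2 and mapped them with minimap2 2.17-r941, with SAMtools 1.10 also named in the submitters' processing notes. The tool and annotation behind the isoform tables, the genome build and the use of strand are not given in the sources used here, so overlapping genes are uncertain. The authors deposited estimated counts per isoform, not normalized, and TPM per isoform, scaled to isoform length and library total.

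Estimated counts were summed per gene and rounded to whole numbers. TMM factors came from edgeR 4.0.16 in R 4.3.3 over genes with at least 20 counts, and DESeq2 1.42.0 gave size factors for an alternative. Log2 ratios used 0.5 counts added, scaled to library size, and printed folds used none. Intervals of ratios and shares are exact binomial (Clopper-Pearson) and those of levels exact Poisson, at 95%, computed in Python 3.11.15 with scipy 1.17.1. Reads carry no molecular identifiers. A floor of 3 counts was used for genes at 0. The procedure was tested on simulated data that held counting error only, so that run cannot speak to spread between libraries. Shared 21-base words and overlaps came from the RefSeq annotation, matched by locus identifier.

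The members and lists were chosen with earlier results of these data known. Counts in every library were given for each member, and ratios with intervals for those at least 2-fold from Col-0 in a mutant and for the member with the highest Col-0 TPM of each role; the ratios of *MAM1*, *MAM3*, *FMO GS-OX1*, *MYB29*, *MYB51* and *GSTF10*, the further values between alleles, and *CYP81F3*, *CYP81F4* and *IGMT5* were chosen after their values were seen. Alternatives were scaling by total count or by DESeq2 size factors, TPM as deposited plus 0.5, 2 counts added, the most counted isoform, the filter dropped or raised to 100 counts, and 4-fold in place of 2-fold. The deposited correlation coefficients between libraries, the m6A calls and the Illumina data were not used here.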

Additional observations from a re-analysis of the deposited data

Results flagged for a closer look

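For 5 members the alleles lay on opposite sides of Col-0 and at least 2-fold apart. The difference was not tested, since each genotype is 1 library. *MAM1* (log2 ratio of *fio1-5* against *fio1-1* 1.16), *FMO GS-OX1* (1.04, or 0.94 on the deposited TPM) and *MYB29* (1.24) were above Col-0 in *fio1-5* and below it in *fio1-1*, where each interval against Col-0 held 0. *CYP81F2* (-2.61) and *MYB51* (-1.04) were above Col-0 in *fio1-1* and below it in *fio1-5*. The *fio1-1* interval of *MYB51* and the *fio1-5* interval of *CYP81F2* against Col-0 held 0.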

How the results depend on the processing

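The medians of the members kept their sign under every alternative run, and moved most on the deposited TPM, to 0.24 in *fio1-1* and 0.44 in *fio1-5*, where the median of all genes also shifted, to -0.14 and -0.15. The numbers of members past 2-fold were less stable. In *fio1-1*, the 5 higher members became 2 on TPM (*UGT74B1* and *CYP81F2*), 3 with 2 counts added, 3 with a minimum of 100 counts and 1 at 4-fold (*CYP81F2*). In *fio1-5*, the 5 higher members became 3 with total-count scaling, 2 on TPM (*IPMDH1* and *SUR1*) and 0 at 4-fold. Those lost with total-count scaling, *IPMI2* and *FMO GS-OX4*, stood at log2 ratios of 0.999 and 0.995. On TPM they stood at 0.88 and 0.86, and *CYP79F1* at 0.92. The share of all genes past 2-fold was not computed for the alternatives. Without a filter, 3 members were lower in *fio1-1* and 2 in *fio1-5*, all of them with under 20 counts. The *fio1-5* ratio of *SUR1* fell to 0.97 on its most counted isoform. Also without a filter, 5 members were higher in *fio1-5* than in *fio1-1*. Between the alleles, the 3 higher in *fio1-5* became 2 on TPM, without *FMO GS-OX1*. At 4-fold, 0 members were higher and 1 lower in *fio1-5* than in *fio1-1*. Beyond the numbers that fewer genes or a higher cutoff set by construction, the cause was not tested.

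Of 144 ratios of the 14 members that the naming rule selects, 135 stayed within the counting interval and 9 moved outside it. None of those past 2-fold reversed, and 3 near 0 (*MYB34* in *fio1-1*) changed sign. For members with 1 listed isoform, the most counted isoform repeats the main value by construction. Intervals are wide at low counts, so *SUR1* stayed within its interval though its *fio1-5* ratio fell from 1.84 to 0.97. The number that stayed is therefore not a measure of stability. Adding the counts of a gene with shared sequence was chosen after seeing the data. No paired analysis was possible because each genotype has 1 library, and leaving out a library would leave no comparison. *SUR1*, *MYB122* and the members under 20 counts have too few counts for firm ratios, and the cause of these low counts was not tested.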

Other observations

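Sulfur-deficiency markers were examined because glucosinolates store sulfur. Of 9 such genes, 7 passed the count minimum, with a median log2 ratio against Col-0 of -0.46 in *fio1-1* and 0.20 in *fio1-5*, and 0 were at least 2-fold apart in either. On the deposited TPM the medians were -0.38 and 0.03, and 1 gene was at least 2-fold lower in *fio1-1*. Summed over the 9 genes, the level was 175, 200 and 246 CPM in *fio1-1*, *fio1-5* and Col-0, so both mutants were below Col-0. The lowest in *fio1-1* was *APR3* (AT4G21990), a reductase of sulfate assimilation, with 193, 255 and 388 counts in *fio1-1*, *fio1-5* and Col-0, respectively. *SHM7* (AT1G36370), a hydroxymethyltransferase, had 144, 166 and 278 counts, and *SDI2* (AT1G04770), a relative of the repressor SDI1, had 80, 69 and 121. These 3 of 7 were lower in both mutants than in Col-0, with intervals wholly below it, beside 15.0% and 14.8% of all genes. The other 4 tested, *SDI1* (AT5G48850), *LSU1* (AT3G49580), *LSU2* (AT5G24660) and *SULTR4;2* (AT3G12520), had log2 ratios of 0.20, 0.28, 0.28 and 0.26 in *fio1-5* and of -0.19, 0.20, -0.11 and -0.49 in *fio1-1*, all with intervals that held 0.

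*APK1* (AT2G14750) and *APK2* (AT4G39940), the kinases that make the activated sulfate used by the sulfotransferases, had 435, 600 and 386 counts and 378, 450 and 316 counts in *fio1-1*, *fio1-5* and Col-0. Their log2 ratios were 0.30 and 0.39 in *fio1-1* and 0.66 and 0.53 in *fio1-5*, each with an interval above 0. *ASA1* (AT5G05730), the anthranilate synthase that feeds tryptophan synthesis, had 83, 53 and 50 counts, a log2 ratio of 0.86 (0.34 to 1.40) in *fio1-1* and 0.11 (-0.48 to 0.70) in *fio1-5*. It was high in *fio1-1* only, but *TSB1* (AT5G54810), also listed for tryptophan supply, had log2 ratios of 0.16 in *fio1-1* and -0.10 in *fio1-5*. *MYC3* (AT5G46760), a partner of the MYB factors, was lower in both mutants, with 181, 206 and 270 counts. *MYC4* (AT4G17880) had 97, 81 and 105 counts, with intervals against Col-0 that held 0, and *MYC2* (AT1G32640) had 0, 1 and 1. These genes were chosen for naming after their values were seen.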
